A study of Cucumis sativus with 4 samples.

Results

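The light-harvesting antenna genes encode the chlorophyll a/b-binding proteins that surround the photosystems of the thylakoid membrane. They were taken here as the rows of an expression table whose Arabidopsis homologue is an LHCA or LHCB gene. Of 21 such homologue IDs, 14 had at least 1 row, and the other 7 were not analysed here. This gave 18 of 18665 cucumber genes, of which 7 belong to the photosystem I antenna and 11 to the photosystem II antenna. Cucumber (Cucumis sativus) plants were raised in sand and sampled at 28 days after sowing. Control plants received 5 mM nitrate. Low nitrogen plants received 1 mM nitrate, and potassium sulfate, potassium chloride and calcium chloride were added to their solution, so that the solutions also differed in sulfate and chloride. Each of the 4 groups (root and leaf, control and low nitrogen) had 1 library, and the labels give neither a cultivar nor how many plants a library came from. Differences therefore carry no replicate check and no p-value, and variation between plants and the other ions cannot be told apart from the nitrate supply.

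LHCA proteins form a crescent on one side of photosystem I, while LHCB proteins serve photosystem II. Among the latter, LHCB1, LHCB2 and LHCB3 make up the trimeric bulk antenna, and LHCB4, LHCB5 and LHCB6 are monomers that link it to the reaction centre. All are encoded in the nucleus, and their transcripts are among the most abundant of green tissue.

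Values are the deposited RPKM, which divide a gene's reads by its length in kilobases and by the library's reads in M (mega). The depths recovered from the steps between values were 2.74 to 4.23 M reads per library. The 10 rows of root markers (homologues of CASP, RHD6, RSL4, SHORT-ROOT and SCARECROW genes) summed to 227 and 213 RPKM in the root libraries and to 4.49 and 7.75 in the leaf libraries, of which one SHORT-ROOT row (scaffold00927) gave 4.49 and 7.01. The 9 rows of leaf markers (Rubisco small subunit, Rubisco activase and Calvin cycle enzymes) summed to 44036 and 22453 RPKM in the leaf libraries and to 10.9 and 8.66 in the root libraries. Both organ labels thus matched their markers. Intervals are 95% intervals of counting error only, from whole reads recovered for 13 of the 18 rows. The reads depend on the gene length taken, and for 9 rows only 1 length gave whole reads. LHCA2 and LHCA6 had 2 such lengths each, LHCB7 had 5 and the LHCB1.4 row on scaffold01543 had 11. The shortest was taken, so intervals of these rows are less certain.

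The antenna took 14.3% of the summed RPKM of the control leaf library and 7.12% of that of the low nitrogen leaf library. Its summed leaf level was 110134 RPKM on control solution and 52763 on low nitrogen, 2.09-fold lower, and all other genes together stood at 104% of control. RPKM are relative to the reads of a library, so a smaller antenna part by itself raises the values of the other genes. There were 7 antenna genes among the 20 highest genes of control leaf and 5 among those of low nitrogen leaf. In root the summed level was 146 RPKM on control solution and 174 on low nitrogen. In bulk tissue, fewer photosynthetic cells and less RNA per cell cannot be told apart. The leaf marker sum stood at 51.0% of control and the antenna at 47.9%, but most of the marker sum came from 1 Rubisco small subunit row, at 52.8%. Single marker rows ran from 22.8% to 86.1% of control. The part of cell composition in the result was not tested.

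**Figure D1:**
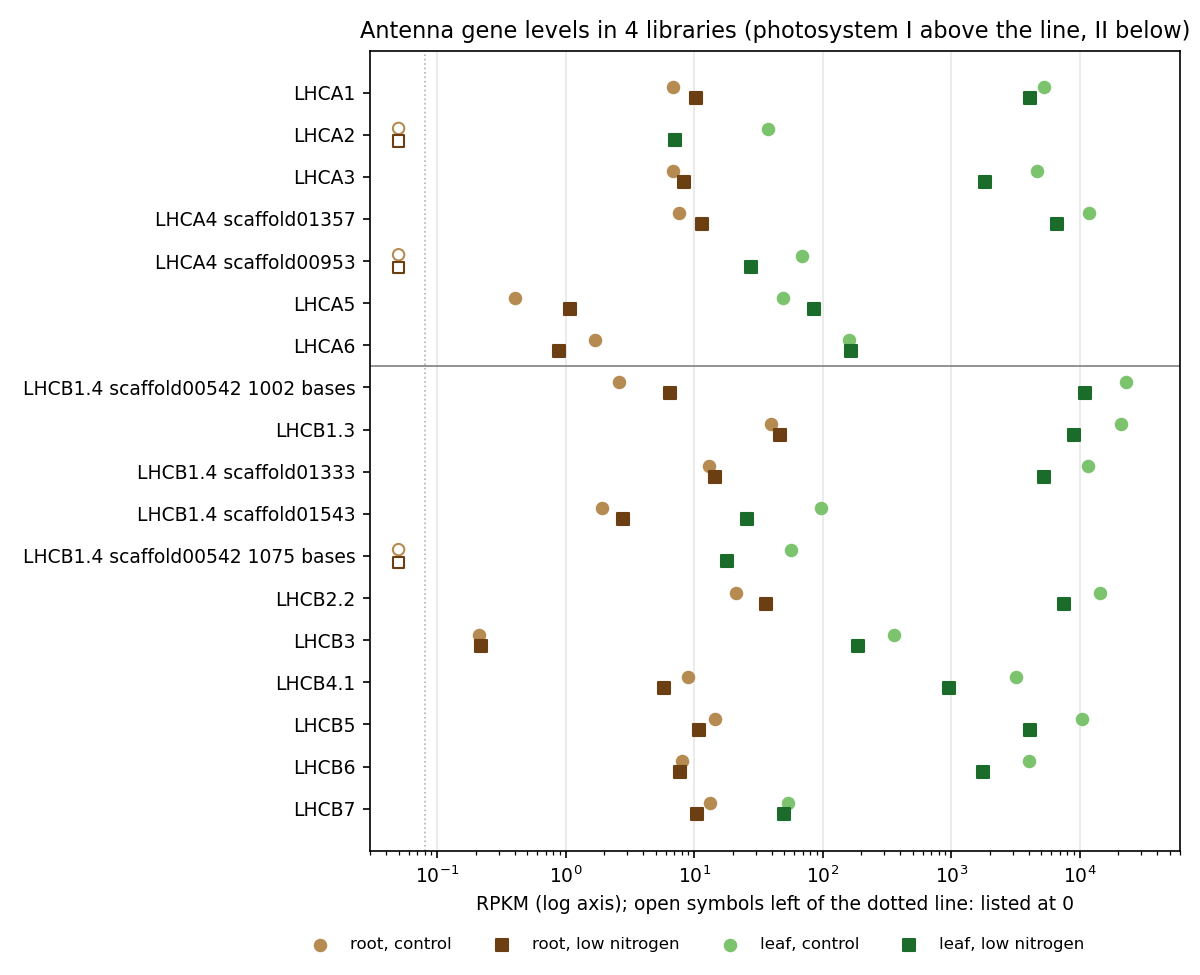
Level of each of the 18 antenna genes in the 4 libraries, in RPKM on a log axis, with open symbols for values listed at 0. Green leaf symbols lie to the right of brown root symbols in every row, and the low nitrogen leaf symbol lies to the left of the control leaf symbol in all rows but LHCA5 and LHCA6.

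Of the 18 antenna genes, 11 were lower in low nitrogen leaf by a log2 ratio of at least 1 (a fold of 2, with a pseudocount of 1 RPKM) and 0 were higher by as much. Over all 13384 genes compared in leaf, 3.59% were lower and 13.6% higher by that size. The median log2 ratio of the antenna genes was -1.17 and that of all genes 0.33, and 17 of the 18 lay below the median of all genes. Median ratio scaling, which centres the bulk of genes, moved the median of all genes to -0.05. With it, 14 antenna genes were lower and 0 higher, beside 1245 lower and 827 higher among all genes. By class, 8 of 11 photosystem II genes were lower, with a median of -1.20, and 3 of 7 photosystem I genes, with a median of -0.84.

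The 4 highest antenna rows in control leaf included 3 of the bulk trimer, a pair of LHCB1 rows and LHCB2.2, along with LHCA4. LHCB1 proteins, which like LHCB2 are phosphorylated in state transitions, had 5 rows. The highest, LHCB1.4 (AT2G34430, Cucsa.047540, scaffold00542, 1002 bases), ranked 3rd of all genes in control leaf. It was at 22999.6 RPKM in leaf on control solution and 11056 on low nitrogen, and at 2.6 and 6.53 in root. LHCB1.3 (AT1G29930, Cucsa.118220, scaffold00998) was at 20926 and 8956 RPKM in leaf, control first, and at 39.3 and 46.6 in root. Another LHCB1.4 row (Cucsa.192480, scaffold01333) was at 11603 and 5285 RPKM in leaf and at 12.9 and 14.4 in root. These 3 rows were lower in low nitrogen leaf by similar folds. The fold was 2.08 for the first (counting interval 2.05 to 2.11), 2.34 for LHCB1.3 (2.30 to 2.37) and 2.2 for the row on scaffold01333, which has no interval.

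The other LHCB1.4 rows were minor. One (Cucsa.047550, scaffold00542, 1075 bases) shares a scaffold with the most abundant row and was at 57.1 and 18.0 RPKM in leaf, control first, and listed at 0 in both roots. It was 3.17-fold lower on low nitrogen (counting interval 2.32 to 4.39), an interval above that of the abundant row. The remaining row (Cucsa.212260, scaffold01543), a gene of 7950 bases, was at 96.1 and 25.8 RPKM in leaf and at 1.91 and 2.81 in root. It was 3.73-fold lower in low nitrogen leaf (3.31 to 4.21). The 4 LHCB1.4 rows spanned a 403-fold range in control leaf. Copies of a family can share reads, and the handling of such reads is not stated, so values of minor copies are uncertain.

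LHCB2.2 (AT2G05070, Cucsa.100400), the one LHCB2 row, was at 14263 and 7578 RPKM in leaf, control first, and at 21.0 and 36.5 in root. LHCB3 (AT5G54270, Cucsa.074470) was far less abundant, at 360.5 and 189 RPKM in leaf and 0.21 and 0.22 in root. Both were lower in low nitrogen leaf by less than the 2-fold limit. LHCB2.2 was 1.88-fold lower (counting interval 1.85 to 1.91) and LHCB3 1.91-fold lower (1.72 to 2.11), and both passed the limit with median ratio or upper quartile scaling.

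The linker genes of photosystem II were further below control, as a sum, than the trimer genes: LHCB4, LHCB5 and LHCB6 together stood at 38.3% of control and LHCB1 with LHCB2 at 47.1%. LHCB4.1 (AT5G01530, Cucsa.067110) was at 3209 and 959 RPKM in leaf, control first, and at 8.91 and 5.80 in root. LHCB5 (AT4G10340, Cucsa.237870) was at 10450.5 and 4071 RPKM in leaf and at 14.4 and 11.0 in root. LHCB6 (AT1G15820, Cucsa.363620) was at 4046 and 1760.3 RPKM in leaf and at 8.08 and 7.76 in root. Their leaf folds were 3.35, 2.57 (counting interval 2.53 to 2.61) and 2.30, the last within the range of the LHCB1 rows. LHCB4.1 was the furthest below control of the 10 antenna genes above 1000 RPKM in control leaf.

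LHCB7 (AT1G76570, Cucsa.272510), a rarely expressed relative in Arabidopsis, was at 53.7 and 50.2 RPKM in leaf, control first, and at 13.1 and 10.5 in root. Its leaf ratio of low nitrogen to control was 0.935, with a counting interval of 0.696 to 1.26 that holds 1. Its log2 ratio of -0.09 became -0.53 with median ratio scaling and -0.45 with upper quartile scaling. Whether LHCB7 differed between the leaves was thus not settled.

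Among photosystem I genes, LHCA1 and LHCA4, whose proteins pair with each other, were the closest to control of the 10 antenna genes above 1000 RPKM. LHCA1 (AT3G54890, Cucsa.275480) was at 5307 and 4095 RPKM in leaf, control first, and at 6.79 and 10.4 in root. The main LHCA4 row (AT3G47470, Cucsa.197770, scaffold01357) was at 11823 and 6609 RPKM in leaf and at 7.63 and 11.4 in root. LHCA1 thus stood at 77.2% of control in leaf and LHCA4 at 55.9%. LHCA4 exceeded LHCA1 by 2.23-fold in control leaf and by 1.61-fold in low nitrogen leaf.

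LHCA2 and LHCA3 make up the other pair. LHCA3 (AT1G61520, Cucsa.355830) was at 4622 and 1825 RPKM in leaf, control first, and at 6.88 and 8.39 in root, and was 2.53-fold lower in low nitrogen leaf (counting interval 2.46 to 2.61). The one LHCA2 row (AT3G61470, Cucsa.075700) was at 37.2 and 7.08 RPKM in leaf and listed at 0 in both roots. Its 5.25-fold lower level on low nitrogen was the largest leaf difference of the 18 genes, with a wide counting interval (3.38 to 8.48). A minor LHCA4 row (Cucsa.112850, scaffold00953), also listed at 0 in both roots, was at 68.4 and 27.4 RPKM in leaf.

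LHCA5 and LHCA6, which in Arabidopsis join photosystem I to the chloroplast NDH complex of cyclic electron flow, were not lower in low nitrogen leaf in the deposited values. LHCA5 (AT1G45474, Cucsa.232950) was at 49.4 and 84.9 RPKM in leaf, control first, and at 0.40 and 1.07 in root. Its leaf level was 1.72-fold higher on low nitrogen (counting interval 1.41 to 2.09), short of the 2-fold limit. LHCA6 (AT1G19150, Cucsa.141900) was at 161 and 165 RPKM in leaf and at 1.68 and 0.89 in root, a leaf ratio of 1.03 (0.892 to 1.19) that came below 1 under each of the 4 other scalings tried. In the deposited values, of the 13 genes with a counting interval in leaf, 10 had one below a ratio of 1. For 1 gene it lay above 1, and for 2 genes it holds 1. The same counts were not taken over all genes, and intervals of abundant genes are narrow because they cover counting error only. Intervals were not recomputed with other scalings. With median ratio scaling the LHCA5 log2 ratio was 0.34 in place of 0.77.

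**Figure D2:**
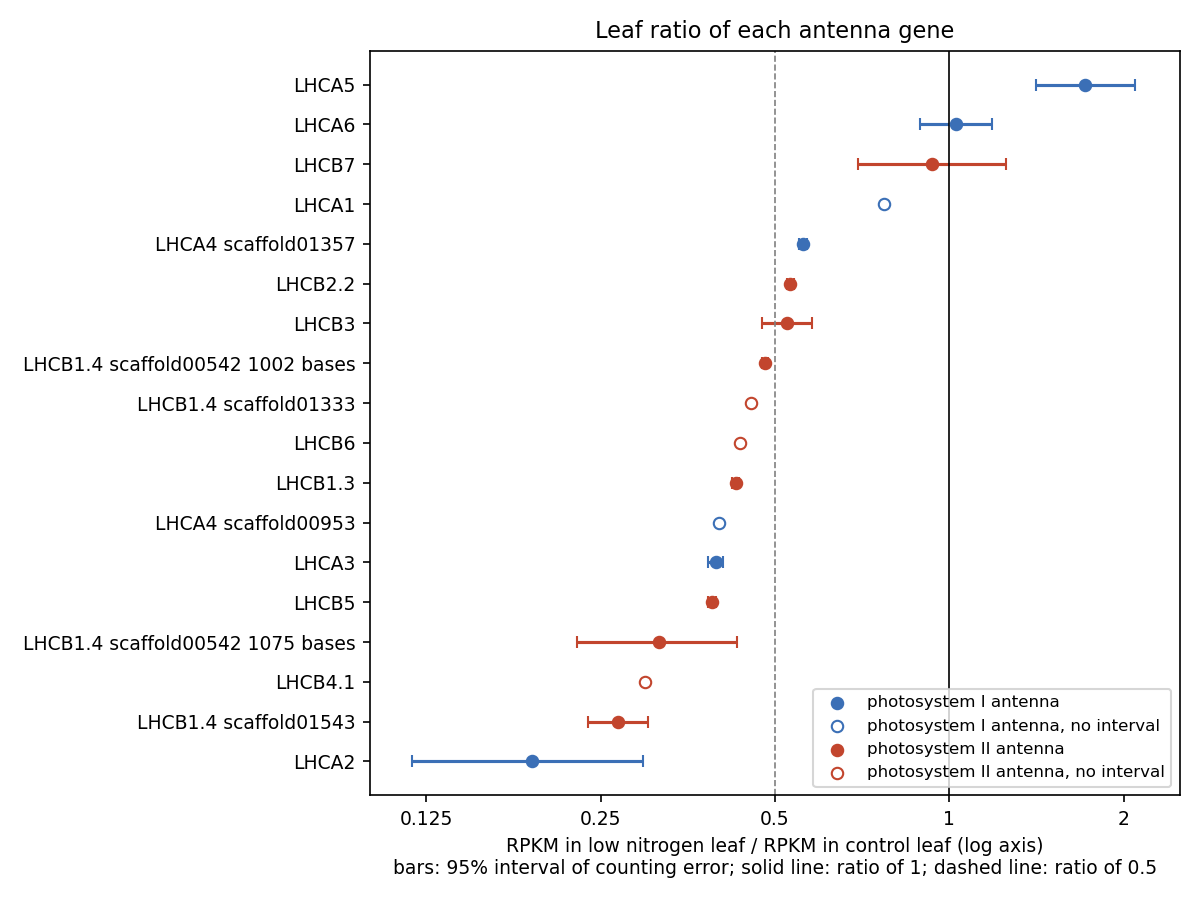
Ratio of RPKM in low nitrogen leaf to RPKM in control leaf for each antenna gene, on a log axis, with bars for 95% intervals of counting error and open symbols where no reads could be recovered. LHCA5 is at 1.72, the intervals of LHCA6 and LHCB7 hold 1, and the other genes lie from 0.772 for LHCA1 down to 0.190 for LHCA2.

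How abundant a gene was had little relation to its leaf ratio. Across the 18 genes, which share libraries and are not independent, Spearman's rho between the control leaf level and the leaf log2 ratio was 0.12. The median log2 ratio was -1.17 for the 10 genes above 1000 RPKM and -1.11 for the 8 below. Levels in the leaf libraries had a rho of 0.96 with each other.

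Photosystem I antenna genes summed to 22069 RPKM in control leaf and stood at 58.1% of that on low nitrogen. Photosystem II antenna genes summed to 88065 RPKM and stood at 45.4%. The ratio of photosystem I to photosystem II antenna RPKM, which does not depend on the scaling between libraries, was 0.251 in leaf on control solution and 0.321 on low nitrogen, and 0.191 and 0.227 in root. Without LHCA1, left out after its values were seen, the leaf ratios were 0.190 and 0.218.

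LHCB1 made up 50.6% of the antenna RPKM of control leaf and 48.03% of that of low nitrogen leaf, and LHCB2 12.95% and 14.4%. LHCA4 took 10.8% and 12.6%, and LHCA1 4.82% and 7.76%. Shares were lower on low nitrogen for LHCB5, at 9.49% and 7.72%, for LHCB4, at 2.91% and 1.82%, for LHCB6, at 3.67% and 3.34%, and for LHCA3, at 4.20% and 3.46%. LHCA2, LHCA5, LHCA6, LHCB3 and LHCB7 each held under 1% in leaf. In root, LHCB7 held 9.0% and 6.02%.

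**Figure D3:**
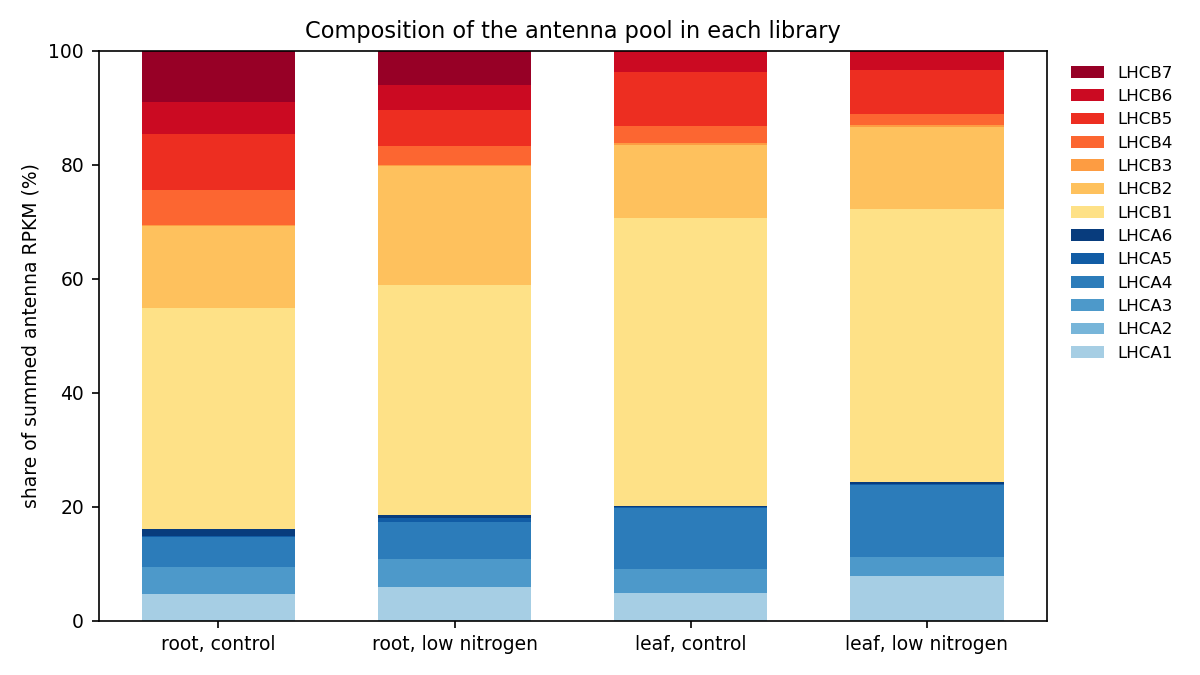
Share of each LHCA and LHCB family in the summed antenna RPKM of each library, in percent, with blue shades for photosystem I and yellow to red for photosystem II. The blue part is 20.04% of the control leaf bar and 24.3% of the low nitrogen leaf bar, and LHCB7, the darkest red, is visible in the root bars alone.

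All 18 antenna genes were higher in leaf than in root by 1 or more on the log2 scale, and 0 were lower, in each treatment. This count includes the 3 rows listed at 0 in both roots and LHCB3, at 0.21 and 0.22 RPKM in root. These rows reached the required mean of 1 RPKM through leaf alone, so their direction was fixed by that filter. The same held for LHCA5 on control solution, at 0.40 RPKM in root, and for LHCA6 on low nitrogen, at 0.89. Of all genes, 17.6% were higher and 40.4% lower in leaf by that size on control solution, and 20% and 31.2% on low nitrogen. The median log2 ratio of leaf over root on control solution was 8.57 for the antenna and -0.65 for all genes, and on low nitrogen 7.42 and -0.30. With median ratio scaling, 3772 genes were higher and 4042 lower in control leaf, in place of 2589 and 5950. The organ and nitrogen comparisons share libraries.

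Root levels were low but uneven. In control root they ran from 0 for 3 rows to 39.3 RPKM for LHCB1.3, with 5 rows at or above 10 RPKM. Against a floor of 3 reads in control root, the control leaf level was at least 64.9-fold higher for LHCA2 and at least 86.5-fold higher for the LHCB1.4 row of 1075 bases. Among the 10 genes above 1000 RPKM in control leaf, the control root level was 0.0113% to 0.278% of the leaf level, with a median of 0.143%. The summed photosystem I and photosystem II subunit genes were at 0.706% and 0.613%, and the summed leaf markers, most of whose RPKM came from one Rubisco small subunit row, at 0.0248%.

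LHCB1.3 and the LHCB1.4 row of 1002 bases had like levels in leaf and unlike levels in root. LHCB1.3 was at 0.910 times the LHCB1.4 row in control leaf and at 15.1 times that row in control root, from 175 and 11 root reads. On low nitrogen these ratios were 0.810 in leaf and 7.13 in root, from 195 and 26 root reads. On control solution the leaf level was 532-fold the root level for LHCB1.3 (counting interval 459 to 621) and 8846-fold for the LHCB1.4 row (4950 to 17744). On low nitrogen the folds were 192 (167 to 223) and 1693 (1156 to 2594). LHCB7 was at the other end, with leaf levels 4.08-fold (2.77 to 6.15) and 4.79-fold (3.08 to 7.67) its root levels on control solution and low nitrogen.

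**Figure D4:**
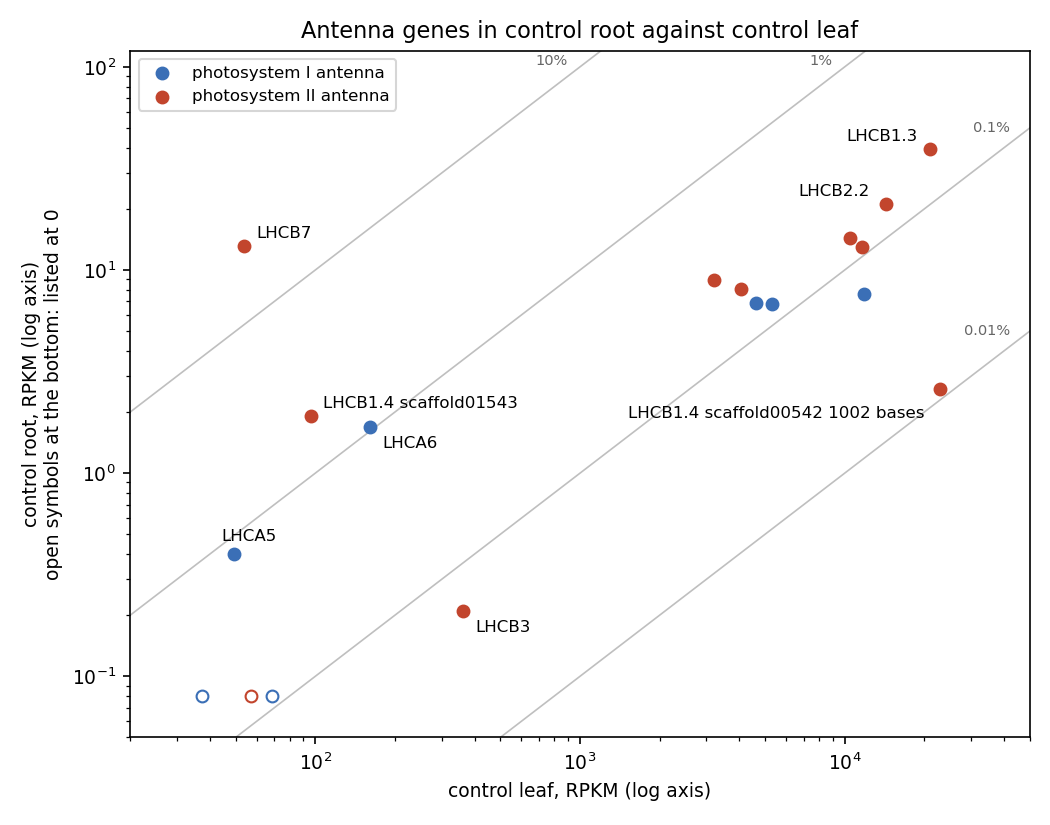
RPKM in control root against RPKM in control leaf for the 18 antenna genes, both on log axes, with grey lines for root levels of 0.01%, 0.1%, 1% and 10% of leaf and open symbols for rows listed at 0 in root. Most abundant genes lie around the 0.1% line, LHCB1.4 of 1002 bases lies near 0.01% and LHCB7 above 10%.

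In root, 13 of the 18 antenna genes reached a mean of 1 RPKM over both libraries. Of these, 1 was higher on low nitrogen by 1 or more on the log2 scale and 0 were lower, where 6.17% of all genes were higher and 4.34% lower. It was the LHCB1.4 row of 1002 bases, with 11 and 26 reads and a ratio of 2.51 (counting interval 1.20 to 5.64), and it was short of the limit with median ratio or upper quartile scaling. LHCB2.2 had 116 and 189 root reads and a ratio of 1.73 (1.37 to 2.2). A log2 ratio above 0 was seen for 8 of the 13 and one below 0 for LHCA6, LHCB4.1, LHCB5, LHCB6 and LHCB7. Over all 14532 genes compared in root, 7610 lay above 0 and 6903 below. The median was 0.24 for the antenna and 0.04 for all genes.

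For 9 of these 13 genes the leaf log2 ratio was below the root log2 ratio by at least 1, and for 0 it was above by as much. Over all genes, 5.78% were that much lower in leaf and 16.4% that much higher. With median ratio scaling those counts were 1336 lower and 974 higher, in place of 700 and 1989. With 1 library per group the difference between organs could not be tested.

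Genes that act on or beside the antenna were compared from lists of Arabidopsis homologues. Over all genes compared in leaf, 3.59% were lower and 13.6% higher by the limit of 1 on the log2 scale. Subunits of the photosystems were also lower: 3 of 9 photosystem I subunit genes and 5 of 10 photosystem II subunit genes passed the limit downwards in low nitrogen leaf, and 0 were higher by as much. With median ratio scaling, which the related lists were put through after their values were seen, 9 of 9 and 9 of 10 passed it. In the deposited values their medians were -0.87 and -0.92, and their sums stood at 54.2% and 56.8% of control. Of photosystem I, PSAN was at 7279 and 2701 RPKM in leaf, control first, PSAG at 113 and 43.7 and PSAH2 at 26.9 and 10.7. Of photosystem II, the less abundant PSBX row (scaffold00995) was at 927 and 278, a minor PSBY row (scaffold00526) at 17.8 and 4.16 and PSBQ2 at 89.9 and 34.8. The main PSBX row (scaffold01079) was at 11564 and 8542, a log2 ratio of -0.44, short of the limit. The main PSBY row (scaffold04100) was at 444 and 251, a log2 ratio of -0.82, also short of it in the deposited values. Of the 9 leaf marker rows, 4 were lower, or 8 with median ratio scaling, and their median was -0.96. Among the 4 were one Rubisco activase row (RCA, scaffold01153) at 2231 and 509 RPKM, another (scaffold01066) at 99.1 and 37.9 and the Calvin cycle gene GAPB at 897 and 289.6. The remaining activase row (scaffold01044) was at 161 and 138, a log2 ratio of -0.21, short of the limit.

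Other members of the antenna protein superfamily, several of them linked to photoprotection, had 7 rows. In the deposited values 0 were lower or higher by a log2 ratio of 1, and the median was -0.08. With median ratio scaling 3 were lower, namely PSBS, OHP1 and OHP2, and 0 were higher. PSBS, needed for the heat dissipation of excess light, was at 77.7 and 44.7 RPKM in leaf, control first. The one-helix proteins OHP1 and OHP2, which act together in the assembly of photosystem II, were at 146 and 74.0 and at 248 and 165. In the other direction, ELIP1 was at 12.1 and 18.3 RPKM and SEP2 at 10.0 and 14.9, log2 ratios of 0.55 and 0.53. Both stayed above 0 under the 4 other scalings tried. By sign, 3 of the 7 rows lay above 0 and 4 below in the deposited values.

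Among genes that deliver antenna proteins to the thylakoid, 1 of 5 was lower and 0 were higher, where 3.59% of all genes were lower. It was CPSRP43, the chaperone of the chloroplast signal recognition particle, at 17.4 and 5.09 RPKM in leaf, control first. Its partner CPSRP54 was at 84.1 and 116 RPKM and the insertase ALB3 at 199 and 139.5. For chlorophyll b, which antenna proteins bind, 0 of 4 genes passed the limit. The synthesis enzyme CAO was at 226 and 160 RPKM, HCAR, which acts on the way back to chlorophyll a, at 30.8 and 44.4, and the chlorophyll b reductase NYC1, whose direction turned with median ratio and upper quartile scaling, at 50.4 and 59.3.

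Of 4 kinases and phosphatases, 1 was lower and 1 higher, where 3.59% of all genes were lower and 13.6% higher. STN7, the kinase that phosphorylates LHCB1 and LHCB2, was at 38.5 and 13 RPKM in leaf, control first, a log2 ratio of -1.50. TAP38, the phosphatase that reverses it, was at 126 and 247 RPKM, a log2 ratio of 0.97. PBCP, a phosphatase of the photosystem II core, was at 14.4 and 31.5 RPKM, a log2 ratio of 1.08 that became 0.67 with median ratio scaling. The signs of these 3 held under the 4 other scalings tried.

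Of 4 regulator rows compared, 1 was higher and 0 were lower, where 13.6% of all genes were higher and 3.59% lower. GLK1, a transcription factor known in Arabidopsis to activate antenna genes, was at 21.96 and 19.6 RPKM in leaf, control first, and listed at 0 in both roots. The rows of HY5, a light signalling factor, were at 22.4 and 61.1 RPKM (scaffold01144, a log2 ratio of 1.41, or 0.98 with median ratio scaling) and at 5.44 and 10.6 (scaffold02995). In the xanthophyll cycle, neither gene passed the limit in the deposited values. The epoxidase ZEP, which passed it downwards with median ratio scaling, was at 76.5 and 50.8 RPKM and the de-epoxidase VDE at 27.3 and 45.4.

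**Figure D5:**
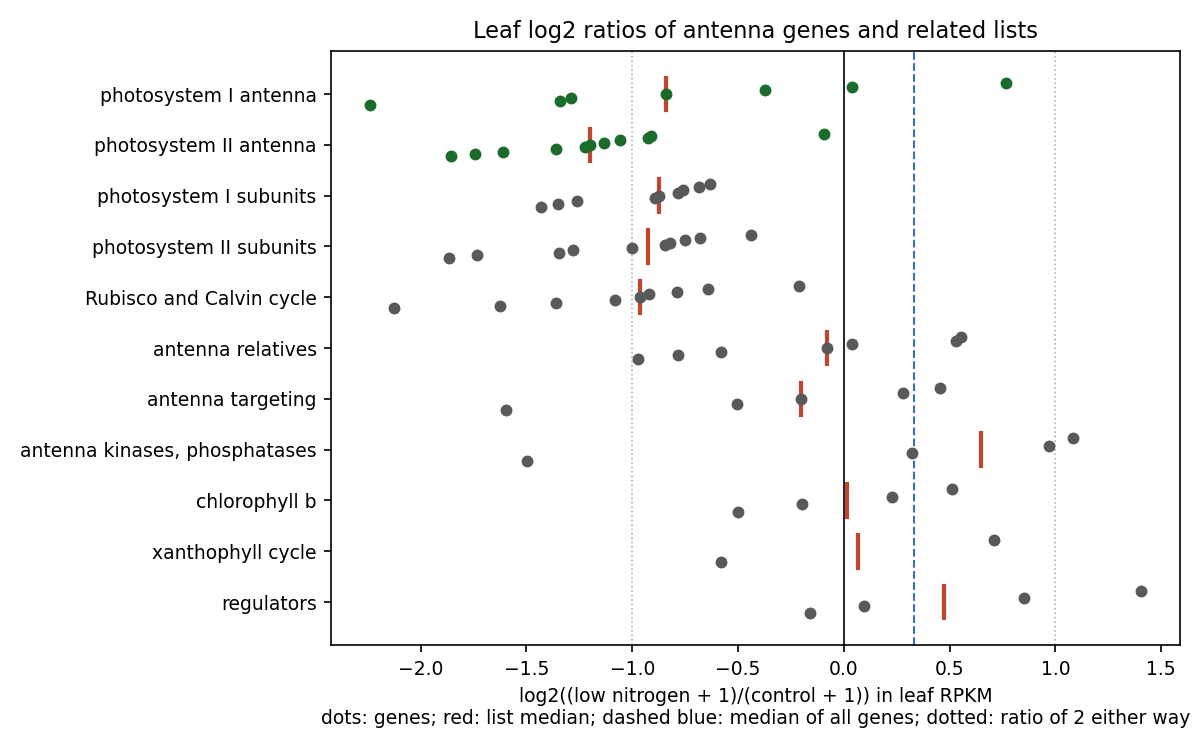
Log2 ratio of low nitrogen over control in leaf for each antenna gene (green) and for genes of related lists (grey), with list medians as red bars and the median of all genes, 0.33, as a dashed line. The antenna, photosystem subunit, and Rubisco and Calvin cycle lists have medians between -0.84 and -1.20, and the other lists have medians between -0.20 and 0.65.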

How the data were processed

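The authors deposited 1 table of RPKM values, 1 column per library, with a length, scaffold, symbol and Arabidopsis homologue for each gene, per the file headers. Per the submitters' processing notes Bowtie 0.12.9 was used. Build, counting program and treatment of reads that match several genes are not stated in the labels. Names follow the deposited table: 0 antenna rows matched the RefSeq gene table, so no coordinates or sequences are printed.

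Log2 ratios used a pseudocount of 1 RPKM, which understates ratios of low genes, and required a mean of 1 RPKM in the libraries compared. Depth and whole reads were recovered from the steps between values (tolerance 0.00501 RPKM), at the shortest gene length from 100 bases to the deposited one that gave whole reads in every library. One existed for 80.6% of genes averaging 1 RPKM or more and for 39.5% after shuffling, so reads of single genes are uncertain. RPKM times deposited length summed to 1.89 to 2.00 times what the depths allow, so deposited lengths are not those behind all RPKM values. Intervals are exact conditional (Clopper-Pearson). Depth recovery and ratio calls were tested on simulated data (Python 3.11.15, pandas 2.3.3, scipy 1.17.1).

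Antenna genes are all named. From each related list the text names up to 3 genes with the largest leaf ratio among those averaging 5 RPKM or more in leaf. GLK1, CAO, ELIP1, SEP2, the main PSBX and PSBY rows and the RCA row on scaffold01044 were added. Members and lists were chosen with earlier results of these data known. Alternatives were other pseudocounts, filters, scalings, summed homologues, recovered reads and RPKM times length.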

Additional observations from a re-analysis of the deposited data

Results flagged for a closer look

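The low nitrogen difference had opposite signs in leaf and root for 9 of the 13 antenna genes compared in both organs, and for the summed antenna; with 1 library per group the difference between organs was not tested. Over all genes compared in both organs, 44.2% had opposite signs. Of the 9 antenna genes, 7 have a counting interval in root, and for 5 of them it holds a ratio of 1, so that the direction in root was not resolved at this depth. The leaf log2 ratio minus the root log2 ratio was -1.31 for the summed antenna RPKM. It was -0.92 for LHCA1, -1.59 for LHCA3, -1.37 for LHCA4 on scaffold01357, -1.46 for LHCB1.3 and -1.68 for LHCB2.2. Among the LHCB1.4 rows it was -2.12 for the one of 1002 bases on scaffold00542, -1.28 on scaffold01333 and -2.25 on scaffold01543. LHCA6 differed the other way, at 0.54, and its leaf ratio came below 0 on the log2 scale under each of the 4 other scalings tried.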

How the results depend on the processing

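No paired analysis was possible because each group has 1 library, and no replicate could be left out for the same reason. The counts of antenna genes lower or higher between leaf and root stayed within 1.5 times under all 10 alternatives in each treatment, and the median log2 ratio of low nitrogen over control lay from -1.61 to -1.01 in leaf and from 0.08 to 0.28 in root. In leaf, 7 antenna genes were lower with genes of the same homologue summed and 7 with recovered reads, where 14 and 13 members entered by construction, against 11 of 18 as reported. In root, the count of 1 higher became 0 with a pseudocount of 5, a mean of at least 5 RPKM, median ratio scaling, upper quartile scaling or summed homologues. Of 157 recomputed leaf log2 ratios of single genes, 0 called ratios changed sign or fell under 1 and 7 came past it. With RPKM times deposited length, the ratio of photosystem I to photosystem II antenna was 0.303 in leaf on control solution and 0.391 on low nitrogen, the antenna share 8.03% and 3.69%, and the LHCB1 share 37.9% and 35.7%. Deposited lengths are not those behind all RPKM values, so these are not shares of reads. Without the most abundant row of each class the photosystem ratios were 0.157 and 0.215, and without LHCA1, an alternative chosen after seeing the data, 0.190 and 0.218. Without the other genes among the 20 highest, the antenna share was 17.3% and 8.51%. Depth limits the root values: LHCB3 had 1 read in each root library and LHCA5 had 2 and 5.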
